A study of Mus musculus with 10 samples.

Results

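Interferon-stimulated genes were examined in skeletal muscle of mice without desmin, which forms the intermediate filaments of muscle fibers. The set held 37 genes out of the 54232 genes of the deposited expression table. It was built around Apol9a and Apol9b, which were chosen by their higher measured values in the desmin knock-out mice of these same data, together with 35 genes known to respond to interferon, and it was used to ask whether the higher Apol9a and Apol9b values were part of a wider interferon response. Because the comparison of knock-out with wild-type mice was used to propose the set, the differences of its members are given as a description, without a p-value for any member, and nothing is read from their counts. The members included antiviral effectors, cytoplasmic nucleic acid sensors, transcription factors of the interferon pathway, regulators of ubiquitin and ADP-ribose modification, and GTPases. All 37 members had a row in the table and reached the expression limit used for testing, a mean of at least log2(10) over all mice, so that none was lost to that limit.

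RNA was sequenced from the gastrocnemius, a calf muscle, of 5 homozygous desmin knock-out mice (genotype Des -/-) and 5 wild-type mice (genotype Des wt/wt) at 3 months of age. The strain label of all 10 mice names a B6J and 129Sv background, the desmin allele Destm1Cba and the laboratory code Cscl, the wild-type mice being littermates of the line, and the labels name no treatment. The knock-out affects every cell of the animal throughout life, and no second knock-out line or re-expression of desmin was included. The labels name the gastrocnemius alone, whereas the paper's text also names the neighboring plantaris. The methods speak of RNA pooled from the muscles of each genotype, whereas the table lists every mouse on its own, and a mouse was taken as 1 replicate.

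Interferons are secreted proteins that cells release after sensing viral or misplaced nucleic acids. Type I interferons bind a receptor of Ifnar1 and Ifnar2, activate the kinases Jak1 and Tyk2, and lead to a complex, with Stat2 and Irf9 among its parts, that binds interferon-stimulated response elements (ISRE) in the promoters of antiviral genes. Interferon-gamma binds another receptor and acts on gamma-activated sites (GAS), with guanylate-binding proteins and immunity-related GTPases among its best known targets. Skeletal muscle fibers can respond to type I interferon, and a raised interferon signature is known from the muscle of patients with dermatomyositis.

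The values are regularized logarithms (rlog), a log2 scale that corrects for library size and shrinks genes with few reads towards their average, so a difference of 1 stands for at least about a doubling of expression. Desmin itself was lower in every knock-out mouse. Its values were 11.89, 11.88, 11.82, 11.88 and 11.76 in the knock-out mice and 16.22, 16.26, 17.74, 16.55 and 16.10 in the wild-type mice, with a difference of -4.73 (SE 0.25; limma, adjusted p = 1.54e-07). The remaining signal of Des in the knock-out mice was not examined. Wild-type mouse 3 stood apart from the others: its mean correlation with its own genotype was 0.982, while it was 0.989 to 0.991 for the remaining wild-type animals and 0.996 to 0.997 for the knock-out animals. Its summed values, 2 to the power of each rlog value, came to 1.48 times the median mouse, and those of the remaining 9 mice to between 0.949 and 1.06 times. The muscle fiber genes Acta1, Ckm, Myh4, Myh1, Tnnt3, Actn3 and Pvalb had the highest values of all marker lists used here. In such bulk samples, fewer cells of a type and less RNA per cell cannot be told apart.

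Of all 14289 tested genes, 7.7% were higher in the knock-out mice at an adjusted p under 0.05 and 5.99% were lower. In 7.45% of the tested genes every knock-out value lay above every wild-type value, and in 6.97% every knock-out value lay below. Among the 37 members, 13 were higher at that limit, 0 were lower and 24 did not pass it. The same 13 were the members in which the genotypes did not overlap. The mean was higher in the knock-out mice for 32 members, compared with 49.5% of all tested genes. The median difference of the members was 0.31, with a range from -0.25 for Oas1a to 2.60 for Apol9a, and that of all tested genes was -0.0029. Without wild-type mouse 3 the median of the members was 0.20, and again 13 members passed. Leaving out Apol9a and Apol9b, 11 of 35 members passed, with a median of 0.29.

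**Figure D1:**
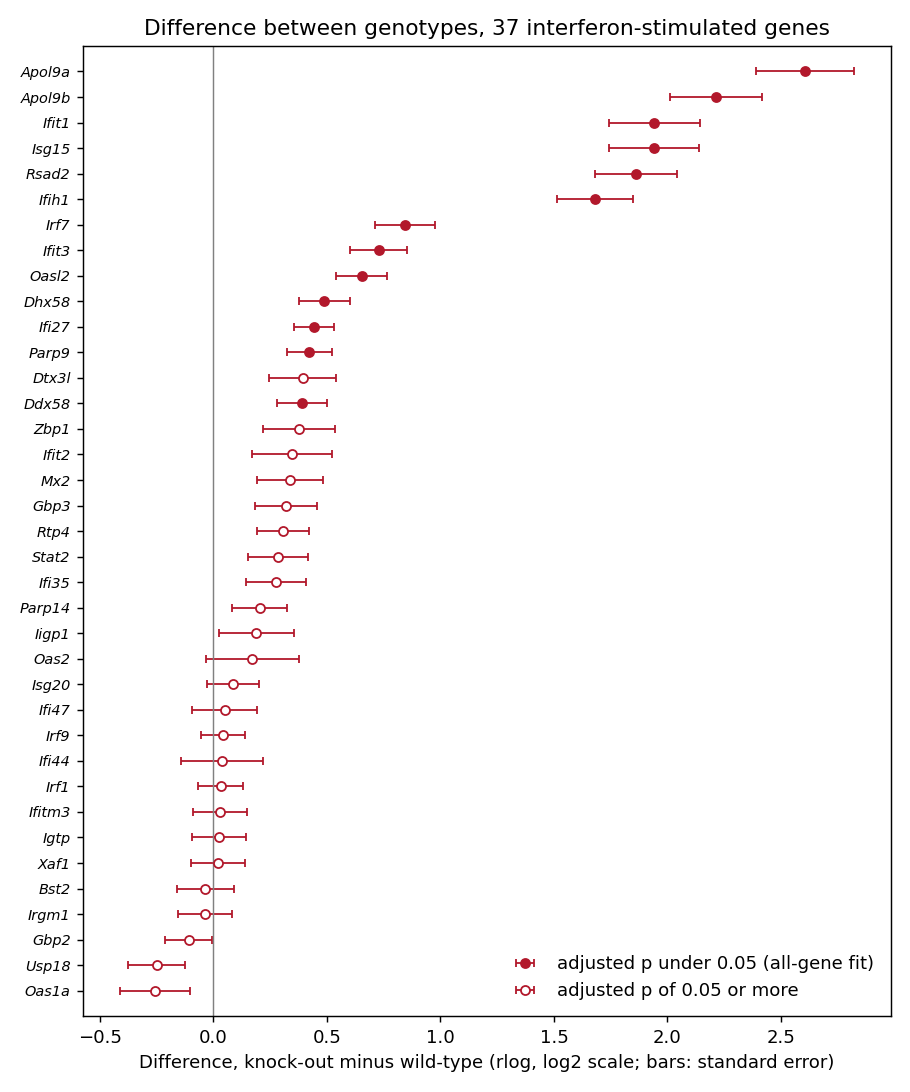
Difference between the mean rlog values of knock-out and wild-type mice (horizontal axis, log2 scale) for each of the 37 members, with its standard error from limma as bars; filled points mark an adjusted p under 0.05 in the fit over all tested genes. The 6 genes at the top, from Apol9a to Ifih1, lie between 1.68 and 2.60, and the other 31 lie between -0.25 and 0.84.

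The differences were uneven. Apol9a, Apol9b, Ifit1, Isg15, Rsad2 and Ifih1 were higher by at least 1, as were 1.66% of all tested genes. After them came a gap down to Irf7 at 0.84. Closest to the limit were Ddx58 inside it and Dtx3l outside it, with differences of 0.39 (SE 0.11) and 0.39 (SE 0.15) and a wider spread between mice in Dtx3l.

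Promoter sequences are shown for the 6 members that differed most, and for Oas1a and Irgm1, which did not pass the limit. Each window runs from 250 bases before to 50 bases after the start of the gene in RefSeq (GRCm38.p6), 5′ to 3′ on the strand of the gene. Capitals mark the ISRE core GAAANNGAAA, or TTTCNNTTTC where it lies on the other strand, with overlapping cores run together.
Apol9a, chr15:77411031-77411330, minus strand: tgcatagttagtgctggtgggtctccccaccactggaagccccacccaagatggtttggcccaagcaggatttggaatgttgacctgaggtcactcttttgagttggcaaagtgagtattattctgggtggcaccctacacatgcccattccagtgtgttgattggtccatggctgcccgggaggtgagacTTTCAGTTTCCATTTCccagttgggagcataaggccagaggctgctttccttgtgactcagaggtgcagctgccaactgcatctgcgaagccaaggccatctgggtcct
Apol9b, chr15:77728822-77729121, plus strand: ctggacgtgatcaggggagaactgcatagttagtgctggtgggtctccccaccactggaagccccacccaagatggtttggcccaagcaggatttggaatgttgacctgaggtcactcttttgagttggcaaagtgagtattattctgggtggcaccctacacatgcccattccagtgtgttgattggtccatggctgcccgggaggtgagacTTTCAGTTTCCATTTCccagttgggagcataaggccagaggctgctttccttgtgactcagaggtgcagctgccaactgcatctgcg
Ifit1, chr19:34640639-34640938, plus strand: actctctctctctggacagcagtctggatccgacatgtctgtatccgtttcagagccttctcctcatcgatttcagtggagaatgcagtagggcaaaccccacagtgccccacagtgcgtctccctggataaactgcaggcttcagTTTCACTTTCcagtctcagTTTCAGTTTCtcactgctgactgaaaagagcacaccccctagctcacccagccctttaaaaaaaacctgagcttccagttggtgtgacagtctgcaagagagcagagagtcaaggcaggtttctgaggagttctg
Isg15, chr4:156200769-156201068, minus strand: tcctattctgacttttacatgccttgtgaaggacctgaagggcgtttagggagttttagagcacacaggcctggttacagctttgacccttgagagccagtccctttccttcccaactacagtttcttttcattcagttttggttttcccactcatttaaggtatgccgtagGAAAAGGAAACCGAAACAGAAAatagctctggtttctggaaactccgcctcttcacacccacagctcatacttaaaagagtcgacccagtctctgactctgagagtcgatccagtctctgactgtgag
Rsad2, chr12:26456403-26456702, minus strand: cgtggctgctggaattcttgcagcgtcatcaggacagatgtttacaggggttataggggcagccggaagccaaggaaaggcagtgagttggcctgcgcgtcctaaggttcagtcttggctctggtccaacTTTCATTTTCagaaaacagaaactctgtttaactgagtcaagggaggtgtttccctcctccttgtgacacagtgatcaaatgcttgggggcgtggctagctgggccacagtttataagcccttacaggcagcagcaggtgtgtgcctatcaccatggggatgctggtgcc
Ifih1, chr2:62646206-62646505, minus strand: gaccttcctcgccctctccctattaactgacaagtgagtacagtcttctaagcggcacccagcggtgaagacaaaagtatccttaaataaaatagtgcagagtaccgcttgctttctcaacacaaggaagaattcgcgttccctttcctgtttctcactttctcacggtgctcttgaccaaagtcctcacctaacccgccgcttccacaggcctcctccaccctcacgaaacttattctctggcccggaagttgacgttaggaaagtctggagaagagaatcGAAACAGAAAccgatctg
Oas1a, chr5:120907476-120907775, minus strand: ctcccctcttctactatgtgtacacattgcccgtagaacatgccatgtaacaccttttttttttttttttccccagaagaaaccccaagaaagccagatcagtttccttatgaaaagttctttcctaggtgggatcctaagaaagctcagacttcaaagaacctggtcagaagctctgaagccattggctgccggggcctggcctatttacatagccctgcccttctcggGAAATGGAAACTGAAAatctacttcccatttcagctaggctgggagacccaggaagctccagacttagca
Irgm1, chr11:48871371-48871670, minus strand: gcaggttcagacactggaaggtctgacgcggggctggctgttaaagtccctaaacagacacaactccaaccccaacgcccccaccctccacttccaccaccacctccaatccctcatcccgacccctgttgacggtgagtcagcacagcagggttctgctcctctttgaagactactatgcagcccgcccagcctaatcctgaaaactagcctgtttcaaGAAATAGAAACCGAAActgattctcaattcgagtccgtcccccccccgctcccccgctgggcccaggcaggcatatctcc

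In these windows the ISRE cores of Apol9a started at -59 and -53 and those of Apol9b at -37 and -31, counted from the first transcribed base as +1, and the windows of the 2 genes shared an unbroken run of 278 bases. Each of the 2 genes had a second window with another start, not shown. There the cores started at -105 and -99 in Apol9a and at -86 and -80 in Apol9b, so these distances depend on the start used. The cores started at -104 and -85 in Ifit1, at -78, -72 and -66 in Isg15, at -120 in Rsad2 and, past the start of the gene, at +33 in Ifih1. Oas1a held overlapping cores at -20 and -14, and Irgm1 at -30 and -24. Promoters of 27 of the 37 members were matched. An ISRE core on either strand was found in 16 of these 27 (59.3%), compared with 3.99% of the 27025 genes with a promoter in the table. It was present in 8 of the 10 matched members that passed the limit and in 8 of the 17 that did not. The GAS core TTCNNNGAA, which reads the same on both strands, was found in 8 of 27 members (29.6%) and in 9.55% of all genes; all 8 were among the 17 members that did not pass the limit (Ifit2, Ifi35, Isg20, Irf1, Oas1a, Bst2, Ifitm3 and Igtp). A match describes the letters of the window and does not show that a factor was bound there.

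Apol9a and Apol9b encode intracellular apolipoproteins of the L family that are induced by interferon in mice. Apol9a (ENSMUSG00000057346; chr15:77403789-77411135, minus strand) had values of 6.48, 7.57, 7.86, 6.87 and 7.06 in knock-out mice 1 to 5 and of 4.37, 4.55, 4.52, 4.67 and 4.70 in wild-type mice 1 to 5. The lowest knock-out value was 1.78 above the highest wild-type value, and the difference of the means was 2.60 (SE 0.22), the third highest of all tested genes. For Apol9b (ENSMUSG00000068246; chr15:77729039-77736382, plus strand) the knock-out mice had 6.19, 7.35, 7.38, 6.70 and 6.84 and the wild-type mice 4.45, 4.63, 4.62, 4.83 and 4.86. Its genotypes did not overlap either, and its difference was 2.21 (SE 0.20). Both genes were lowest in knock-out mouse 1 and highest in knock-out mouse 3. They lie 318 kb apart, and their longest coding transcripts are 98.4% identical over 1422 aligned positions, so reads may have been split between them and their separate values are uncertain.

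**Figure D2:**
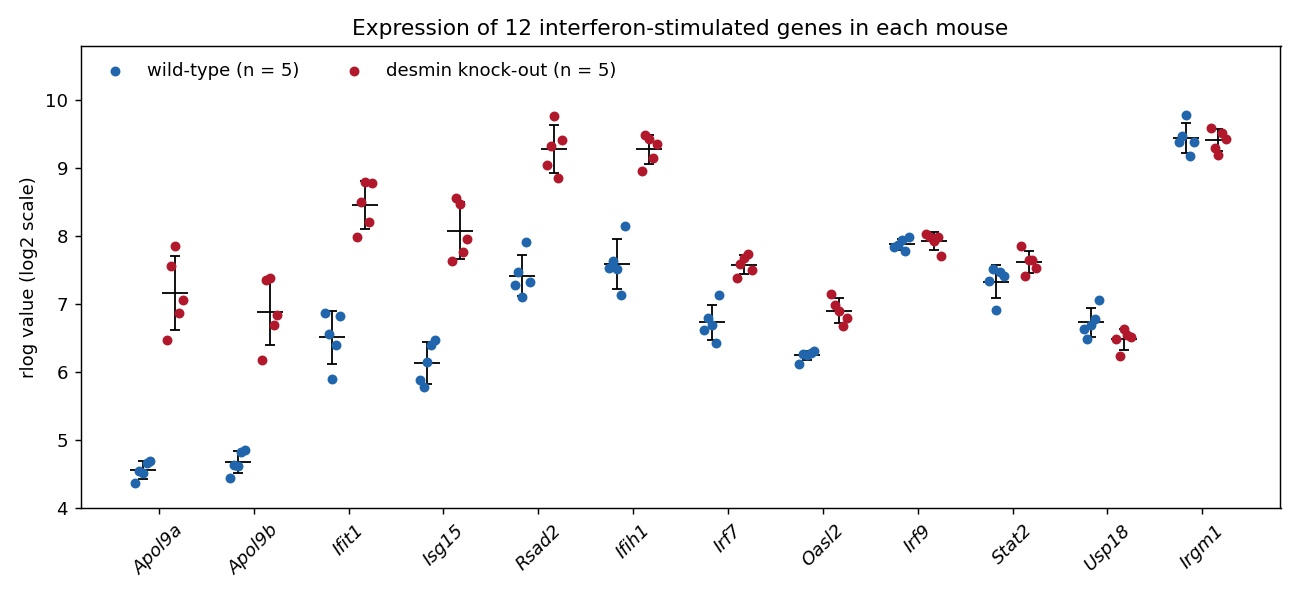
Values of 12 members in each mouse (vertical axis, rlog, log2 scale): points are single mice, horizontal lines are means and bars are SD (n = 5 per genotype). In Apol9a, Apol9b, Ifit1, Isg15, Rsad2, Ifih1, Irf7 and Oasl2 all knock-out mice lie above all wild-type mice, whereas Irf9, Stat2, Usp18 and Irgm1 overlap.

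Among the 12 antiviral effectors, 5 were higher at the limit and 7 were not. Of all tested genes 7.7% were higher. The groups of members by role are small and were proposed from this comparison, so nothing is read from their counts here or below. Ifit1, which binds viral RNA that lacks the methylation of host caps, had values of 8.0, 8.51, 8.79, 8.21 and 8.78 in the knock-out mice and 6.88, 6.57, 5.91, 6.40 and 6.82 in the wild-type mice. These did not overlap, and the difference was 1.94 (SE 0.20). Isg15 is a ubiquitin-like protein that is attached to newly made proteins. It was at 7.64, 8.56, 8.48, 7.77 and 7.96 in the knock-out mice and at 5.88, 5.78, 6.16, 6.40 and 6.48 in the wild-type mice, a difference of 1.94 (SE 0.20) without overlap. Rsad2 encodes viperin, an enzyme that makes a nucleotide that ends viral RNA chains. Its values were 9.05, 9.32, 9.78, 8.86 and 9.42 in the knock-out mice and 7.28, 7.48, 7.11, 7.92 and 7.33 in the wild-type mice, which differed by 1.86 (SE 0.18), again without overlap. Ifit3 and Oasl2 differed less. Ifit3 was between 7.36 and 7.81 in the knock-out mice and between 6.57 and 7.07 in the wild-type mice (difference 0.73, SE 0.13). It shares 97.8% of 1700 aligned positions with its neighbor Ifit3b, so that its value may hold reads of both. Oasl2, an oligoadenylate synthetase-like protein, was between 6.68 and 7.15 in the knock-out mice and between 6.13 and 6.31 in the wild-type mice (difference 0.65, SE 0.11).

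The other 7 effectors overlapped between the genotypes. Ifit2, of the same family as Ifit1, had 6.83, 6.79, 6.79, 6.78 and 6.66 in the knock-out mice and 6.45, 6.74, 5.79, 6.24 and 6.90 in the wild-type mice. The knock-out values lay within 0.16 of each other, the wild-type values spread over 1.11, and the difference was 0.35 (SE 0.18), or 0.19 without wild-type mouse 3. Mx2, a dynamin-like antiviral GTPase, differed by 0.34 (SE 0.15), with 4.07 to 4.66 in the knock-out and 3.72 to 4.17 in the wild-type mice. The synthetases Oas1a and Oas2, whose product activates RNase L, differed by -0.25 (SE 0.16) and 0.17 (SE 0.21). Differences of 0.09 for the exonuclease Isg20, 0.03 for Ifitm3, which hinders viral entry, and -0.03 for Bst2, which tethers budding virus, were smaller than their standard errors of 0.115 to 0.124. The 3 Ifit genes lie in 1 cluster on chromosome 19, Ifit2 and Ifit3 7.11 kb apart and Ifit1 52.1 kb from Ifit3 with Ifit1bl1 and Ifit3b between them. Their differences were 1.94 for Ifit1, 0.35 for Ifit2 and 0.73 for Ifit3.

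All 4 nucleic acid sensors had a higher mean in the knock-out mice, and 3 of them passed the limit. Ifih1 encodes MDA5, which detects long double-stranded RNA. It had 8.97, 9.49, 9.43, 9.15 and 9.36 in the knock-out mice and 7.54, 7.64, 7.52, 7.13 and 8.16 in the wild-type mice, a difference of 1.68 (SE 0.17) without overlap. Dhx58, whose product LGP2 regulates the other sensors of the family, had 5.38, 5.53, 5.38, 5.29 and 5.15 in the knock-out mice and 4.85, 4.96, 4.88, 4.65 and 4.94 in the wild-type mice. It differed by 0.49 (SE 0.11) and did not overlap. Ddx58 (named Rigi in newer annotation) encodes RIG-I, which detects the ends of viral RNA. The knock-out mice had 7.50, 7.22, 7.39, 7.07 and 7.27 and the wild-type mice 6.76, 6.95, 7.0, 6.81 and 6.97, so that the groups were separated by only 0.07. Its difference of 0.39 (SE 0.11) missed the limit in 10 of 17 other settings, among them the removal of knock-out mouse 1, 2, 3 or 5 or of wild-type mouse 1, 2 or 4. Zbp1, a sensor of left-handed nucleic acids, differed by 0.38 (SE 0.16) and overlapped, with 3.39 to 4.14 in the knock-out and 3.14 to 3.75 in the wild-type mice.

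Of the 4 transcription factors only Irf7, which drives further interferon production, passed the limit, where 7.7% of all tested genes were higher. Irf7 was at 7.39, 7.59, 7.69, 7.74 and 7.50 in the knock-out mice and at 6.62, 6.80, 6.69, 6.44 and 7.13 in the wild-type mice, a difference of 0.84 (SE 0.13). The genotypes did not overlap, with a gap of 0.26 between them. Stat2, a part of the ISRE-binding complex, had 7.85, 7.42, 7.65, 7.65 and 7.53 in the knock-out mice and 7.35, 7.51, 6.91, 7.48 and 7.42 in the wild-type mice. Its difference was 0.29 (SE 0.13). Wild-type mouse 3 was 0.44 below the next lowest mouse, and without it the difference was 0.18. Irf9, another part of that complex, lay between 7.71 and 8.04 in the knock-out and between 7.79 and 7.99 in the wild-type mice, with a difference of 0.04 (SE 0.10). Irf1, an interferon-gamma target that is itself a transcription factor, differed by 0.03 (SE 0.10).

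Usp18, Parp9, Dtx3l and Parp14 modify proteins or remove such modifications. Parp9 and Dtx3l form an ADP-ribosylating ubiquitin ligase and are transcribed from opposite strands of chromosome 16, with annotated ends that overlap by 681 bases. Parp9 passed the limit, with 8.94, 8.79, 8.48, 8.67 and 8.64 in the knock-out mice, 8.34, 8.28, 8.22, 8.28 and 8.27 in the wild-type mice, no overlap and a difference of 0.42 (SE 0.10). Dtx3l had 9.23, 8.80, 8.86, 8.99 and 9.07 against 8.73, 8.88, 8.06, 8.56 and 8.75, overlapped and differed by 0.39 (SE 0.15), or by 0.26 without wild-type mouse 3. The library kit keeps the strand, but the strand setting used for counting is not given in the sources used here, so reads from their overlap may have been counted for either gene. Parp14 differed by 0.21 (SE 0.12), or by 0.13 without that mouse. Usp18, which removes Isg15 from proteins and restrains signalling at the type I interferon receptor, was at 6.49, 6.24, 6.64, 6.55 and 6.52 in the knock-out mice and at 6.64, 6.49, 6.70, 6.78 and 7.06 in the wild-type mice. Its difference was -0.25 (SE 0.13), with overlapping groups, and only Oas1a had a lower difference among the members.

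None of the 6 GTPases passed the limit, which says little about the group, since only 7.7% of all tested genes were higher. Gbp2 and Gbp3 are guanylate-binding proteins, and Igtp, Irgm1, Iigp1 and Ifi47 are immunity-related GTPases, all of which act on vacuoles that hold intracellular pathogens. Irgm1 had 9.60, 9.31, 9.20, 9.52 and 9.44 in the knock-out mice and 9.39, 9.48, 9.79, 9.18 and 9.39 in the wild-type mice, which overlapped throughout. The differences were 0.32 (SE 0.14) for Gbp3, 0.19 (SE 0.16) for Iigp1, 0.05 (SE 0.14) for Ifi47, 0.03 (SE 0.12) for Igtp, -0.04 (SE 0.12) for Irgm1 and -0.11 (SE 0.10) for Gbp2. Their median was 0.04. Without wild-type mouse 3 the difference of Gbp3 was 0.20.

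The last 5 members have other roles. Ifi27, a small hydrophobic membrane protein, passed the limit, with 10.74 to 10.82 in the knock-out mice, 10.15 to 10.53 in the wild-type mice and a difference of 0.44 (SE 0.09). Rtp4, a chaperone of receptors, had 6.35, 6.55, 6.22, 6.27 and 6.33 in the knock-out and 5.99, 5.96, 6.01, 5.89 and 6.34 in the wild-type mice. Only wild-type mouse 5 reached the range of the knock-out mice, and the difference was 0.31 (SE 0.12). Ifi35 differed by 0.28 (SE 0.13), Ifi44 by 0.04 (SE 0.18) and Xaf1, a proapoptotic protein, by 0.02 (SE 0.12). The sign of the difference turned in at least 1 other setting for 11 members that did not pass (Ifi44, Ifi47, Isg20, Irf1, Irf9, Oas2, Bst2, Ifitm3, Xaf1, Igtp and Irgm1). Each of these had a difference smaller than its standard error. The sign turned for 0 of the 13 that passed, but their genotypes did not overlap, so leaving out a mouse could not turn it.

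**Figure D3:**
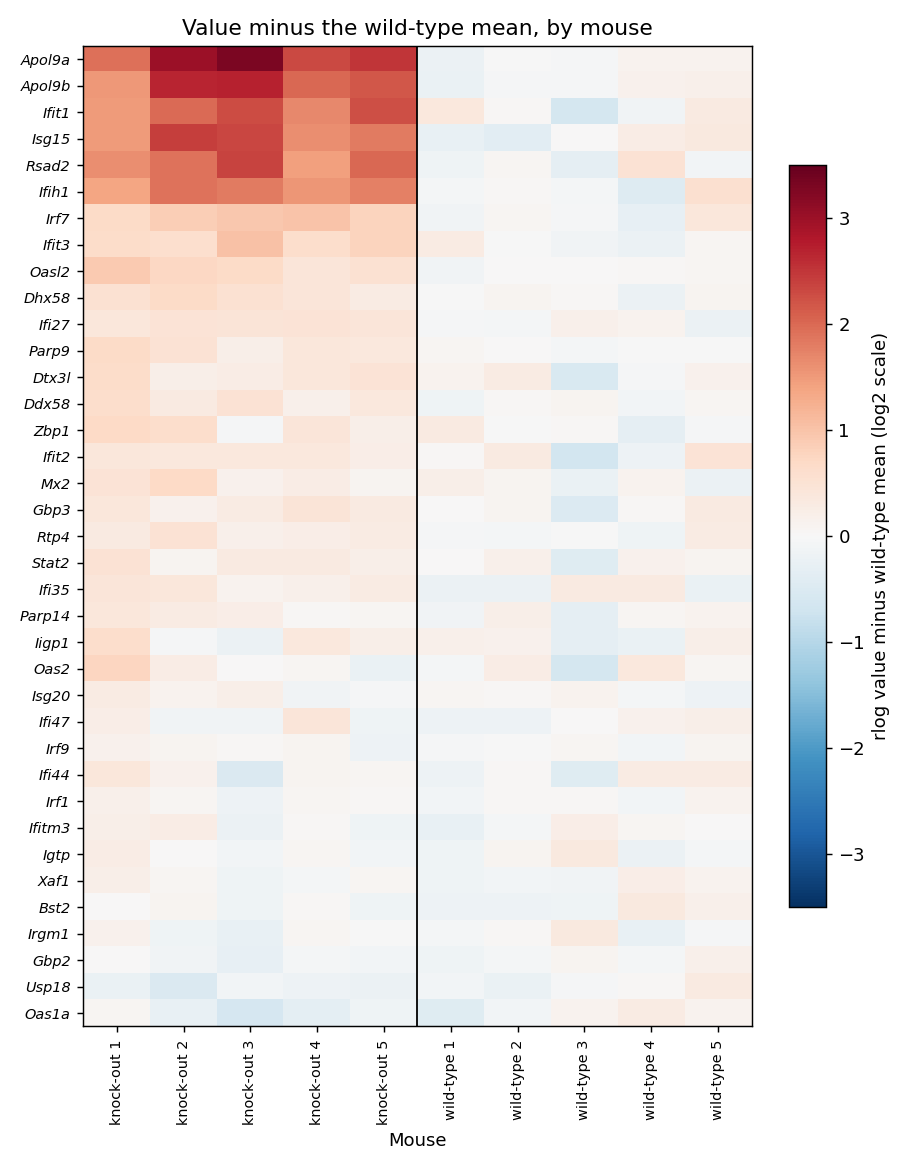
Value of each member in each mouse minus the wild-type mean of that gene (color scale, rlog, log2 scale), with genes in rows from the highest to the lowest difference and mice in columns, knock-out mice left of the line. The strong color of the 5 knock-out columns ends after Ifih1, the knock-out values of Irf7, Ifit3, Oasl2, Dhx58, Ifi27, Parp9 and Ddx58 still lie above all wild-type values, and in the other rows the genotypes overlap.

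The knock-out mice did not keep 1 order across the members. Within a genotype the order of the mice does not depend on the comparison between genotypes, but the split into 13 and 24 members does. The order is described here without a test. How often each mouse was highest or lowest over all tested genes was not examined. Among the 13 members that passed the limit, knock-out mouse 1 was the lowest of the 5 in 7 and the highest in 3, and knock-out mice 2 and 3 were highest in 4 and 5. Among the 24 others, knock-out mouse 1 was the highest in 17 and the lowest in 0, and knock-out mouse 3 was the lowest in 13 and the highest in 1. Knock-out mouse 1 thus had the lowest values of Apol9a (6.48), Apol9b (6.19), Ifit1 (8.0), Isg15 (7.64) and Ifih1 (8.97) beside the highest values of Oas2 (6.70), Iigp1 (8.46), Zbp1 (4.14) and Ifi44 (5.12). The median deviation from the knock-out mean was -0.19 over the 13 genes and 0.18 over the 24 genes in mouse 1, and 0.15 and -0.16 in mouse 3. In the wild-type mice, mouse 5 was the highest in 6 of the 13 and in 10 of the 24 genes.

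**Figure D4:**
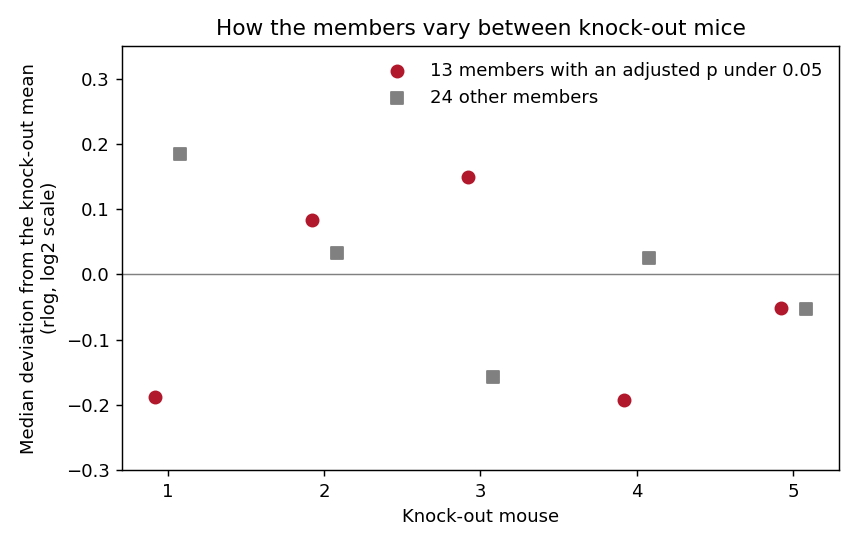
Median deviation of each knock-out mouse from the knock-out mean (vertical axis, rlog, log2 scale; horizontal axis, number of the mouse) over the 13 members with an adjusted p under 0.05 (circles) and over the 24 other members (squares). Mouse 1 is at -0.19 and 0.18, mouse 3 at 0.15 and -0.16, mouse 4 at -0.19 and 0.02, and both marks of mice 2 and 5 lie on the same side of 0.

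Genes of the pathway outside the set were listed by their known function, with earlier results of these data known, and tested. Most genes named from each list are those with the smallest adjusted p, so they are no independent tests of a wider response. Of 69 other interferon-induced genes, 58 reached the expression limit. Of these 58, 8 were higher in the knock-out mice (13.8%), 1 was lower (1.72%) and 49 did not pass (limma, adjusted p under 0.05). Over all tested genes the shares were 7.7% and 5.99%. Mx1 and Ccl5, among the 8, reached the limit only through the knock-out mice. The median difference of the 58 genes was 0.06. Oasl1, which lies 11.0 kb from Oasl2 and restrains the translation of Irf7, had 6.01, 6.53, 6.82, 5.77 and 6.27 in the knock-out mice and 4.44, 4.66, 4.75, 4.82 and 4.50 in the wild-type mice. It was higher by 1.65 (SE 0.18, adjusted p = 3.83e-05). Ddx60, a helicase that assists RIG-I, was at 6.39, 6.26, 6.35, 6.10 and 6.54 against 5.24, 5.23, 4.59, 5.21 and 5.46, a difference of 1.18 (SE 0.16, adjusted p = 0.000192). Tor3a, a torsin ATPase of the endoplasmic reticulum, was higher by 0.74 (SE 0.10, adjusted p = 0.000202), and Oas1c by 0.68 (SE 0.14, adjusted p = 0.00498). In these 4 genes all knock-out mice lay above all wild-type mice.

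Ccl5, Parp12 and Zc3hav1 were named after their values had been seen, as the remaining genes of that list that rose beside Mx1. Ccl5, a chemokine for T cells, differed by 0.53 (adjusted p = 0.0169), Parp12 by 0.44 (adjusted p = 0.0289) and Zc3hav1, an antiviral zinc finger protein, by 0.37 (adjusted p = 0.0192). The call of Parp12 was lost in 9 of 17 alternatives, among them the fit without an expression limit and the removal of any knock-out mouse or of wild-type mouse 2 or 4 (highest adjusted p 0.0715). Ccl5 missed the limit without knock-out mouse 5 (adjusted p = 0.0508), and Zc3hav1 without knock-out mouse 1 and with the replicate number as a block (highest adjusted p 0.0685). Mx1, a classical type I interferon target, had low values of 3.74, 3.79, 3.49, 3.69 and 3.36 in the knock-out mice and 3.10, 3.35, 2.95, 2.96 and 3.48 in the wild-type mice. These overlapped, the difference was 0.44 (SE 0.14, adjusted p = 0.0483), and the call was lost in 13 of 16 other settings, including the removal of any mouse other than knock-out mouse 5 and wild-type mouse 5, with adjusted p-values from 0.0243 to 0.112. Ly6a, a surface protein of endothelial and stem cells, was lower, with a difference of -0.40 (SE 0.09, adjusted p = 0.00764). The endothelial genes Pecam1 (-0.49), Cdh5 (-0.52), Tie1 (-0.48) and Tek (-0.41) were lower too, and their part in the Ly6a result was not tested.

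Cmpk2 lies 12.8 kb from Rsad2 on the opposite strand and is known to be induced along with it. Its values were 6.64, 6.28, 6.55, 6.65 and 6.74 in the knock-out mice and 6.58, 6.66, 6.18, 6.35 and 6.79 in the wild-type mice, a difference of 0.06 (SE 0.14, adjusted p = 0.802), while Rsad2 differed by 1.86. The value of Rsad2 minus that of Cmpk2 in the same mouse was at least 2.21 in the knock-out mice and at most 1.57 in the wild-type mice. Cmpk2 was singled out after its values had been seen. Cxcl10, a chemokine induced by both types of interferon, was at 6.41, 5.90, 6.33, 6.34 and 6.69 against 6.38, 5.94, 5.37, 5.62 and 4.92, and its difference of 0.69 (SE 0.23) missed the limit (adjusted p = 0.0707). Without wild-type mouse 1 it was 0.87 and passed (adjusted p = 0.0139), and over all 17 alternatives the adjusted p ranged from 0.0139 to 0.167.

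**Figure D5:**
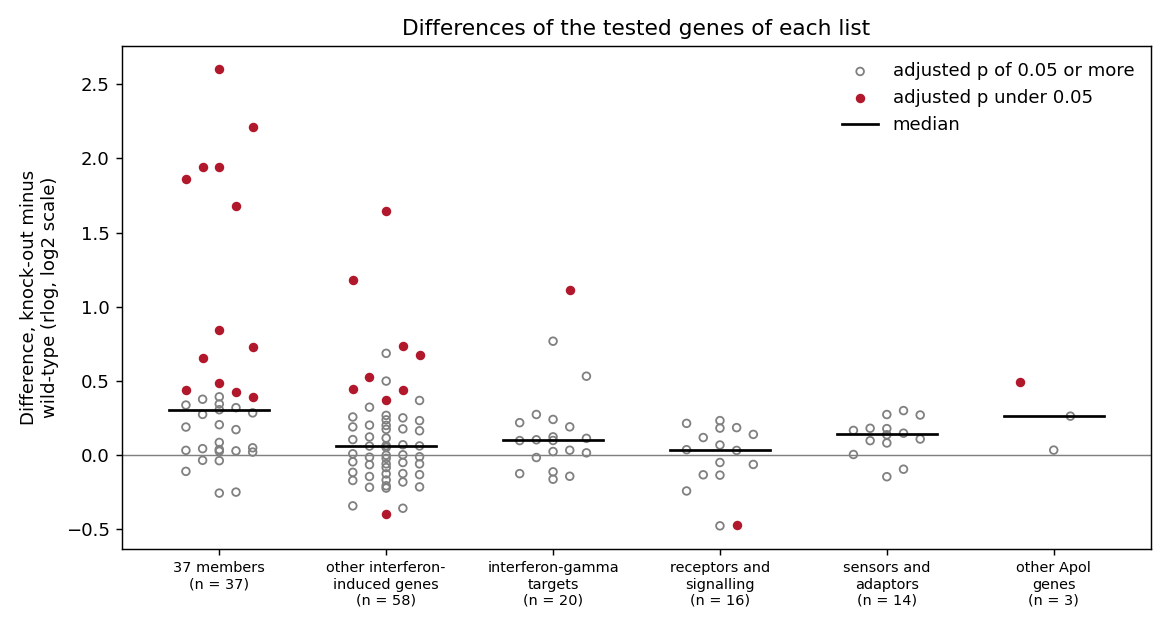
Difference between the mean rlog values of knock-out and wild-type mice (vertical axis, log2 scale) for every tested gene of the 37 members and of 5 lists of related genes; filled points have an adjusted p under 0.05 and horizontal lines are medians. The members have the highest median (0.31) and 13 filled points, but were proposed from this comparison, while the medians of the 5 other lists lie between 0.04 and 0.26.

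Of 25 genes known as targets of interferon-gamma, 20 were tested. Of these 5.0% were higher, near the 7.7% of all tested genes, so nothing is read from the count. The 1 higher gene was the chemokine Cxcl11. It had 6.41, 6.45, 6.50, 6.21 and 6.29 in the knock-out mice and 5.52, 5.57, 4.77, 4.95 and 5.47 in the wild-type mice, which did not overlap (difference 1.12, SE 0.16; adjusted p = 0.000418). Cxcl9, a related chemokine, differed by 0.53 (adjusted p = 0.0621). It passed in 4 of 16 alternatives, among them the removal of knock-out mouse 3 (0.69, adjusted p = 0.00785) or wild-type mouse 5 (0.62, adjusted p = 0.0378), with adjusted p-values from 0.00328 to 0.147 over all 16. The guanylate-binding protein Gbp7 differed by 0.77 (SE 0.29, adjusted p = 0.102). Gbp7 was low in wild-type mouse 3 (6.53, with 7.79 to 8.33 in the remaining 4), and without that mouse its difference was 0.44 (adjusted p = 0.0574, and 0.0574 to 0.213 over all 17 alternatives). The proteasome subunit Psmb10 (0.24, adjusted p = 0.249) did not pass except with sample weights. Gbp9 differed by 0.28 (adjusted p = 0.312), and by 0.12 without wild-type mouse 3. The median of the list was 0.10.

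Interferons themselves were hardly seen. Of 20 interferon genes, 17, including Ifng, were listed at 0 in every mouse, and the other 3 (Ifnb1, Ifnab and Ifna7) lay below the expression limit. Ifnb1 was at -2.06 in both genotypes. Since the depth is unknown, it cannot be said how much interferon RNA would have gone unseen.

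Among 17 genes of the interferon receptors and their signalling, 16 were tested, 0 were higher and 1 was lower, with a median of 0.04. Over all tested genes 7.7% were higher and 5.99% lower, so these counts say little about the list. The kinase Jak2, which serves the interferon-gamma receptor among others, was at 10.99, 10.82, 11.04, 11.07 and 10.93 in the knock-out mice and at 11.63, 11.63, 11.43, 11.14 and 11.39 in the wild-type mice (difference -0.47, SE 0.10; adjusted p = 0.00844). Jak1 differed by -0.24 (SE 0.09, adjusted p = 0.0938). It passed without wild-type mouse 3, which raised the number of genes of this list past the limit to 2. The receptor chains Ifnar1 (0.14, adjusted p = 0.343) and Ifngr1 (0.19, adjusted p = 0.434), the phosphatase Ptpn2 (0.22, adjusted p = 0.139) and the inhibitor Socs1 (-0.48, adjusted p = 0.227, and -0.26 without wild-type mouse 2) did not pass.

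Of 17 further nucleic acid sensors and adaptors, 14 were tested with limma and 0 passed. With 7.7% of all tested genes higher and 5.99% lower, this count says little about the list. At an unadjusted p under 0.05 there were 2, the adaptors Myd88 (0.27, adjusted p = 0.0837) and Ticam1 (0.30, adjusted p = 0.109), both of which passed when wild-type mouse 3 was left out. Traf3, Tlr3 and Trim25 differed by 0.18, 0.27 and 0.18 (adjusted p of 0.229, 0.236 and 0.358). The median of the list was 0.14.

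Among 11 other genes of the apolipoprotein L family, 3 reached the expression limit. Apol6, which lies 347 kb from Apol9a, had 10.97, 11.07, 11.01, 11.02 and 11.05 in the knock-out mice and 10.36, 10.65, 10.76, 10.29 and 10.59 in the wild-type mice. It was higher by 0.49 (SE 0.10, adjusted p = 0.00446) without overlap. Apol8 (0.26, adjusted p = 0.306) and Apol10b (0.04, adjusted p = 0.916) did not pass, and the sign of Apol10b turned with median centring, with quantile normalization, and without knock-out mouse 1 or 2 or wild-type mouse 3. Apol7a, below the limit, passed in a fit without it (0.28, adjusted p = 0.011).

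The lists of cells that could carry interferon-stimulated RNA were measured beside these results. Of 8 macrophage genes (Adgre1, Cd68, Csf1r, Itgam, Cd14, Mrc1, Lyz2 and C1qa), 0 passed the limit, 0 also had an unadjusted p under 0.05 (limma), and the log2 of their summed level ranged from 11.03 to 11.51 in the knock-out and from 10.93 to 11.39 in the wild-type mice. All 7 T cell genes (4.04 to 4.21 against 4.15 to 4.39) and all 5 NK cell genes (3.03 to 3.18 against 2.98 to 3.12) were below the expression limit. Of 4 B cell genes 1 was tested and did not pass (4.31 to 4.58 against 4.33 to 5.02). In the neutrophil list S100a9 was lower, with a difference of -1.18, and 1 other of 4 genes was tested (4.30 to 4.79 against 4.55 to 5.32). S100a9 reached the expression limit only through the wild-type mice, with a mean of 4.02 there and 2.84 in the knock-out mice. Siglech, the defining gene of plasmacytoid dendritic cells, was below the limit (difference -0.29), as were Ccr9 (-0.03) and Ly6d (-0.07). Klk1, which other cells also express, was higher by 2.0 (5 genes listed, 2 tested). The summed level of this list (10.42 to 10.70 against 9.75 to 10.55) was almost wholly that of Tcf4. Tcf4 had means of 10.46 in the knock-out and 10.17 in the wild-type mice and did not pass, so the sum says little about these cells. Of 5 endothelial genes, 4 were lower (11.56 to 12.05 against 12.05 to 12.45), and of 7 muscle fiber genes 2 were lower, Myh4 and Actn3 (21.93 to 22.15 against 22.21 to 23.17). Over all tested genes 5.99% were lower. None of the genes on these lists was at 0 in every mouse. The part of these cells in the values of the interferon-stimulated genes was not tested.

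The 37 members lie on 15 chromosomes. Chromosome 1, which holds Des, is not among them. Chromosome 11 held the most, 7 members, of which 1 (Dhx58) passed the limit. Chromosome 16 held 5 with 1 (Parp9), chromosome 3 held 3 with 0, and chromosomes 4, 12 and 15 held 2 each, all of which passed (Isg15 and Ddx58, Rsad2 and Ifi27, Apol9a and Apol9b). Chromosome 19 held 3 with 2, chromosomes 5 and 7 held 3 with 1 each, and chromosome 2 held 2 with 1. Chromosomes 6, 8, 10, 14 and 18 held 1 each, with 0 past the limit. Over all tested genes 7.7% were higher. The members were proposed from this comparison, so nothing is read from these counts.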

How the data were processed

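RNA-seq data of gastrocnemius muscle from 5 Des -/- and 5 Des wt/wt mice were used. Per the submitters' processing notes, reads were trimmed with cutadapt 2.5, aligned with STAR 2.5.4a to GRCm38 and counted with featureCounts (Subread 1.6.1). The log2 values deposited by the authors are DESeq2's rlog values, whose shrinkage makes differences smaller than those of counts, mostly for genes with few reads. Counts were not used here, so depth and counting error are unknown, and no interval for counting error could be given. All 10 sample columns were used. P-values set the difference between genotypes against the spread between mice of a genotype, moderated over all tested genes.

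Knock-out was compared with wild-type in a linear model (limma 3.58.1, R 4.3.3; moderated by eBayes with a trended prior, two-sided) over the 14289 genes whose mean reached log2(10), and p-values were adjusted over all of them by Benjamini-Hochberg. Of the table's genes, 54165 were matched to GENCODE M21. Promoters came from RefSeq (GRCm38.p6).

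The members and lists were chosen with earlier results of these data known. Named were Des, the 37 members, the 5 genes with the smallest adjusted p of each other list, and Mx1, Cxcl10, Ifnb1, Ifng, Ifnar1 and Ifngr1 whatever their values, and 1 gene that is not reported here. Alternatives left out each mouse in turn, dropped the expression limit or raised it to log2(50), used sample weights, 1 prior variance for all genes or the replicate number as a block, and rescaled the mice by quantiles or by their medians.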

Additional observations from a re-analysis of the deposited data

Results flagged for a closer look

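In 6 of 132 groups of 5 mice, made of the named genes in each genotype, a single mouse lay further from its group than Dixon's 95% limit for 5 samples allows, and chance gives about 6.6. Of these, 3 were in wild-type mouse 3: Des at 17.74, Stat2 at 6.91 and Ddx60 at 4.59. Rtp4 in wild-type mouse 5 was high at 6.34, which put it within the range of the knock-out mice. Ifit2 in knock-out mouse 5 was low at 6.66, although all knock-out values of Ifit2 lay between 6.66 and 6.83. Cxcl9 in knock-out mouse 3 was low at 4.36.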

How the results depend on the processing

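All 13 members past the limit kept their direction, and 12 of them their call, in every alternative that tested them, which was all 17 except that Dhx58 was not tested at a limit of log2(50). Leaving out a mouse could not change these directions, since the genotypes did not overlap in the 13 members. Ddx58 was past the limit in 7. Members past the limit numbered 12 to 17, with 17 under sample weights and 12 of 31 tested at log2(50). Apol9a and Apol9b reached log2(50) only through the knock-out mice. Their means were 7.17 and 6.89 there, with 4.56 and 4.68 in the wild-type mice. The members' median difference was 0.22 with sample weights and 0.20 to 0.33 with single mice left out, the lowest without wild-type mouse 3. Sample weights called 4220 genes in all (1956 without them), 3 interferon-gamma targets, 5 genes of receptors and signalling and 3 sensors and adaptors. With single mice left out, these 3 lists gave 1 to 2 (2 without knock-out mouse 3 or wild-type mouse 5), 1 to 2 (2 without wild-type mouse 3) and 0 to 2 (2 without wild-type mouse 3). A limit of log2(50) left 5 other interferon-induced genes called among 42 tested, and no limit gave 2 other Apol genes. Ddx60, among the 5, reached log2(50) only through the knock-out mice (mean 6.33, with 5.15 in the wild-type mice). Apol10b reversed to -0.0074 with median centring and to -0.047 with quantile normalization. With single mice left out its difference ranged from -0.062 to 0.18, with -0.062 without knock-out mouse 1, -0.0064 without knock-out mouse 2 and -0.043 without wild-type mouse 3. Apart from the smaller number of genes tested, the cause of these changes was not tested. Median centring gave 942 genes higher and 979 lower, in place of 1100 and 856.

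Mice with the same replicate number did not deviate together (correlations from -0.22 to 0.07; 0 of 10 mice lay closest to their own number), so the number was taken as a name only. With it as a block, 12 members, 1579 genes in all, 6 other interferon-induced genes and 2 interferon-gamma targets were called. The unknown depth limits what can be said of genes at or near 0, among them the interferons.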
